A study of Homo sapiens with 4 samples.

Results

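The zinc finger protein genes of the ZNF family were followed through a chromatin immunoprecipitation sequencing (ChIP-seq) study of HNF4A, a liver transcription factor of the nuclear receptor family. Members were all regions whose closest gene, in the authors' deposited tables, is named ZNF followed by digits alone. This gave 123 of 5326 regions, lying nearest to 108 genes, and 41 of the 123 regions, nearest to 38 genes, were on chromosome 19. The other 82 regions were nearest to 70 genes on other chromosomes. The cells were HCCLM3, an established human hepatocellular carcinoma line, carried as stable lines made with a lentiviral overexpression vector that has a CMV promoter. The labels name neither the cDNA in each library nor the glucose concentrations, and the growth protocol given for all 4 libraries is the same high glucose medium. The 4 libraries were HNF4A at high glucose, IgG at high glucose, HNF4A at low glucose and IgG at low glucose, 1 of each, where IgG is a nonspecific antibody that gives the background. With 1 library per group no difference has a replicate check.

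ZNF genes encode proteins with arrays of C2H2 zinc fingers, small DNA-binding units that each hold a zinc ion. Many also carry a KRAB domain, which recruits the corepressor TRIM28 and through it the histone methyltransferase SETDB1, and so silences transposable elements and other targets. In primates the family has expanded by tandem duplication, above all in clusters on chromosome 19. In the RefSeq gene table for GRCh38, 240 of 477 protein-coding genes with such a name are on chromosome 19. Of these 240, 15.8% had a region here, against 29.5% of those on other chromosomes. Chromosome 19 held 33.3% of the ZNF regions and 6.78% of all regions.

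Promoter sequences are printed for 6 members, picked from those with regions among the highest or lowest described below. In 5 of the 6 the promoter holds a motif described below, and that of ZNF860 holds neither. They are the 250 bases before the gene start, from RefSeq on GRCh38.p14, written 5′ to 3′ along the gene. Capitals mark the motif known for ETS factors, CTTCCGG, and the longer motif known for the activator ZNF143, on either strand. The regions themselves are on hg19, so their distance to these promoters was not measured. The longer run of capitals in ZNF584, ZNF180, ZNF235 and ZNF573 is the ZNF143 motif, and the shorter run in ZNF584, ZNF180 and ZNF638 is the ETS motif. Other members with high or low regions, such as ZNF778, ZNF557, ZNF771, ZNF23 and ZNF24, are not printed. Their promoters hold no ZNF143 motif. The 6 printed here therefore do not show how common a motif is among the highest or lowest regions.
ZNF584, chr19:58408399-58408648, strand +: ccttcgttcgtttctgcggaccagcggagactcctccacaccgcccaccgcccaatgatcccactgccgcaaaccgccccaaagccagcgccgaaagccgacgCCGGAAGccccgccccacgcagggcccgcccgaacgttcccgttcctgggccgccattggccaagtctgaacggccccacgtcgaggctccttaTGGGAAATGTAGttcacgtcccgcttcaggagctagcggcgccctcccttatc
ZNF180, chr19:44500523-44500772, strand -: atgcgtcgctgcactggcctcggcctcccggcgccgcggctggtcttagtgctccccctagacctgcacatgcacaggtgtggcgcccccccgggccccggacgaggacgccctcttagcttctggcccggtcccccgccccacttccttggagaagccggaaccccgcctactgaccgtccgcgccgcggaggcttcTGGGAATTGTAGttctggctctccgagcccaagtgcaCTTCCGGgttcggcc
ZNF235, chr19:44305026-44305275, strand -: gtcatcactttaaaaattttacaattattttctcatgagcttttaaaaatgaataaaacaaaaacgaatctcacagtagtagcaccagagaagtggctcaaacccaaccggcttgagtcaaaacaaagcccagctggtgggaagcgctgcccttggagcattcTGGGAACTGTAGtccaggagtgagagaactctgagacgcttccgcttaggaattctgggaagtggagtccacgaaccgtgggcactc
ZNF573, chr19:37779587-37779836, strand -: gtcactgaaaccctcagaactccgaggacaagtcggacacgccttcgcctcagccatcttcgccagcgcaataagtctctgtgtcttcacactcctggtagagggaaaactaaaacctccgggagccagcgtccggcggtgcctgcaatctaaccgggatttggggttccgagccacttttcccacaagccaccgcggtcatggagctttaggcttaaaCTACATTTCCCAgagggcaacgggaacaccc
ZNF638, chr2:71331532-71331781, strand +: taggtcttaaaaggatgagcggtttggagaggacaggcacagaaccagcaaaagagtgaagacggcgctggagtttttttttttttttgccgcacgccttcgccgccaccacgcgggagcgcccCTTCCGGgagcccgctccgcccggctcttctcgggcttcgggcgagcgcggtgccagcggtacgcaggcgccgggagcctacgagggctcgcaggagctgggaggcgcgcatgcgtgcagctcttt
ZNF860, chr3:31981500-31981749, strand +: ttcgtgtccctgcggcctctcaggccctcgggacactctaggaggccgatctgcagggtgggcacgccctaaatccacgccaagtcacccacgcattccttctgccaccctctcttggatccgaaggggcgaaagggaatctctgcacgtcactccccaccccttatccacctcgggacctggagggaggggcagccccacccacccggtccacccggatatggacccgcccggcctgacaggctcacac

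RefSeq promoters of 300 bases were matched by symbol for 92 of the 108 member genes, which gave 126 sequences. The ETS motif was in 45 of these (35.7%), against 14.4% of the promoters of other genes with a region and 10.3% of all 35116 promoters. ZNF genes without a region held it in 35.4%, a share close to that of the members. The ZNF143 motif was in 17 of the 126 (13.5%), against 0.944% for other genes with a region and 0.706% of all promoters. On chromosome 19 it was in 16 of 46 member promoters (34.8%), and on other chromosomes in 1 of 80 (1.25%). ZNF genes of chromosome 19 without a region held it in 6.51%. By gene, it was in 14 of 35 members with a promoter on chromosome 19 and in 1 of 57 elsewhere. ZNF genes of chromosome 19 without a region had it in 14 of 175. Some windows overlap, such as windows of ZNF112 or of ZNF345 and ZNF790, so 1 motif can be counted in several windows. CAAAGTCCA, the motif known for HNF4A, was in 0 of the 126 member promoters and in 0.384% of all promoters. Member promoters had a median GC content of 63.7% and 24 CpG pairs, other genes with a region had 64.7% and 24, and all promoters had 58.7% and 14. These matches describe the letters of the windows and are not binding sites, and the motifs were picked after the sequences had been scanned.

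The first question was how far HNF4A stood above its IgG background at these genes. At high glucose the ZNF regions stood closer to background than the rest of the table, on chromosome 19 and elsewhere alike. Ratios below are log2 ratios of reads scaled by library size, and a range in brackets is an exact 95% counting interval (Clopper-Pearson), which covers counting error alone. The median ZNF region held 52 HNF4A reads and 37 IgG reads at high glucose, where the median over all regions was 50 and 26. The median log2 ratio was 0.33 for the 123 ZNF regions and 0.79 for all 5326. HNF4A was above IgG in 90 ZNF regions (73.2%, against 84.2% of all regions) and below it in 33. It was at least 2-fold above IgG in 23 of 123 ZNF regions (18.7%), where the share over all regions was 41.6%. The interval lay above 0 in 38 ZNF regions (30.9%, against 55.2% of all regions) and below 0 in 3 (2.07% of all regions). A deficit of at least 2-fold was seen in 2 (1.05% of all regions). Regions are not replicates, so the gap between ZNF and other regions carries no test.

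Outside chromosome 19 the medians of ZNF regions and other genes lay further apart in IgG than in HNF4A, and on chromosome 19 it was the reverse. Per kb of region, the median scaled IgG level at high glucose was 30.6 for ZNF regions on chromosome 19 and 30.4 for ZNF regions elsewhere. For regions of other genes it was 29.6 on chromosome 19 and 24.7 elsewhere. The median scaled HNF4A level per kb was 37.5 for ZNF regions on chromosome 19 and 39.0 for ZNF regions elsewhere, against 42.6 and 41.8 for other genes in the same 2 places. At low glucose the HNF4A levels were close together, at 35.9 and 33.4 for ZNF regions on chromosome 19 and elsewhere and at 33.9 and 33.0 for other genes. The IgG levels there were 20.4 and 18.7 for ZNF regions and 20.03 and 16.8 for other genes. Median lengths were 1215 bp for ZNF regions on chromosome 19 and 1092.5 bp for ZNF regions elsewhere, against 1030 bp for all regions.

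**Figure D1:**
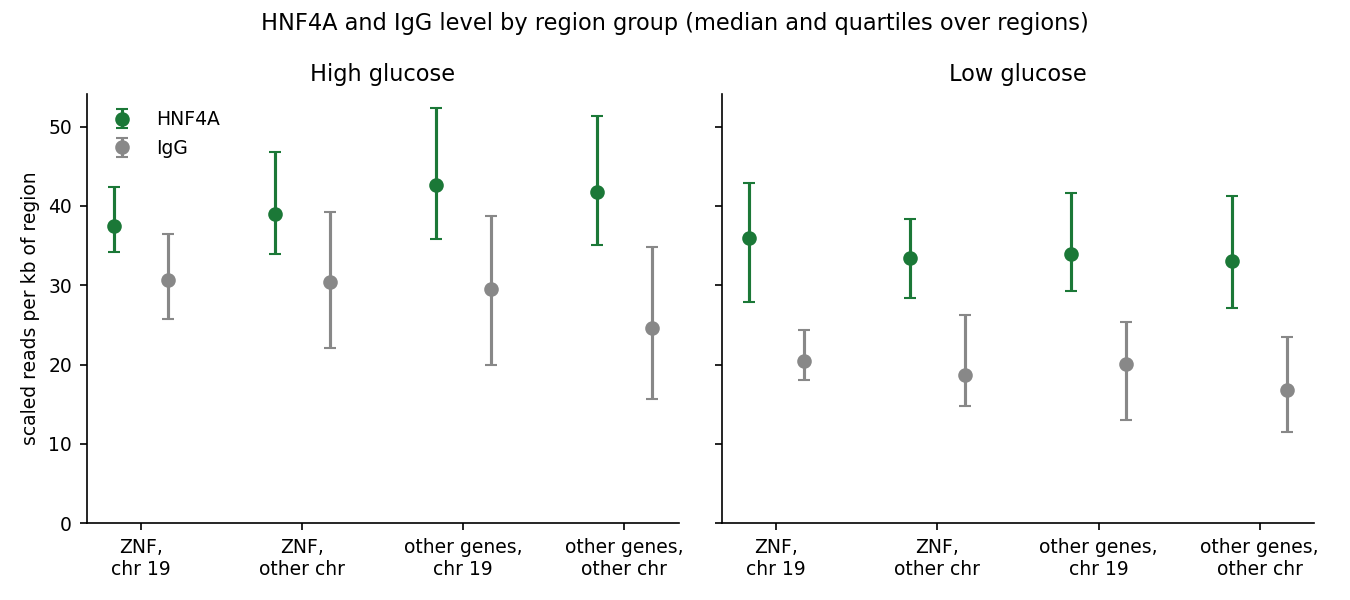
Scaled reads per kb of region for HNF4A (green) and IgG (grey) at high glucose (left) and low glucose (right), as the median with its quartiles over regions, for ZNF regions and for other genes on chromosome 19 and elsewhere. At high glucose the ZNF groups have IgG medians of 30.6 and 30.4, beside 24.7 for other genes on other chromosomes.

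ZNF regions on chromosome 19 had a median log2 ratio over IgG of 0.27 at high glucose, and those on other chromosomes 0.35, a difference of -0.08. Regions of other genes on chromosome 19 had a median of 0.66 and those on other chromosomes 0.81. ZNF regions minus other genes gave -0.39 on chromosome 19 and -0.46 elsewhere, and among other genes chromosome 19 minus the rest gave -0.15. HNF4A passed 2-fold over IgG in 5 of the 41 ZNF regions of chromosome 19 (12.2%) and in 18 of the 82 elsewhere (22%). For other genes the shares were also lower on chromosome 19, at 35.6% against 42.7% elsewhere.

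At low glucose the ZNF regions stood further above IgG and nearer to the rest. Their median log2 ratio was 0.75, against 0.94 over all regions, with 0.77 on chromosome 19 and 0.69 elsewhere. That difference of 0.087 was -0.036 when reads were pooled over regions. HNF4A was above IgG in 112 of the 123 regions (91.1%), near the share over all regions (91.5%). The excess was at least 2-fold in 39 of 123 (31.7%), against 46.8% of all regions, and the interval lay above 0 in 61 (49.6%, against 56.2%). On chromosome 19 the 2-fold excess was in 11 of 41 regions (26.8%), and elsewhere in 28 of 82 (34.1%). Other genes had it in 43.2% of regions on chromosome 19 and in 47.5% elsewhere. No ZNF region had an interval below 0 at low glucose (0.713% of all regions did), and 1, that of ZNF24, was at least 2-fold below IgG (0.488% of all regions).

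**Figure D2:**
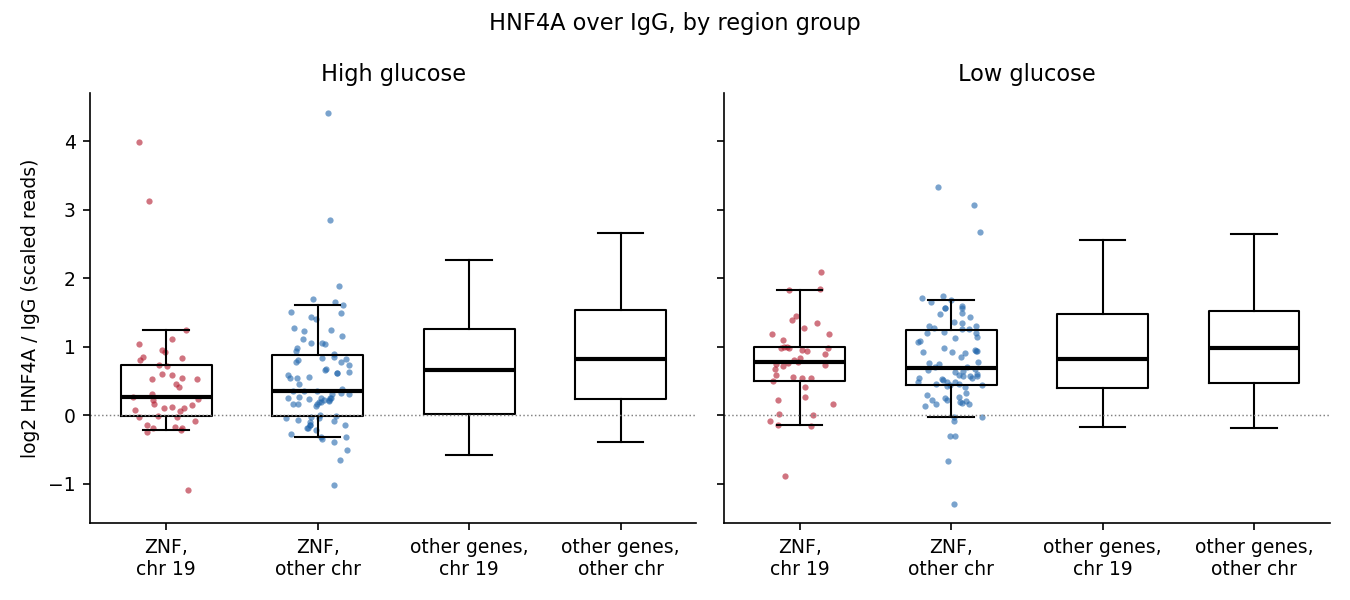
Log2 ratio of HNF4A over IgG at high glucose (left) and low glucose (right), with 1 point per ZNF region and boxes giving the median and quartiles, and whiskers from the 5th to the 95th percentile. The ZNF medians are 0.27 and 0.35 at high glucose and 0.77 and 0.69 at low glucose.

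The single regions furthest above IgG held few IgG reads. ZNF638 encodes a nuclear protein that binds DNA and RNA and takes part in silencing of unintegrated retroviral DNA with the HUSH complex. Its region on chromosome 2 (71615066 to 71615938) held 47 HNF4A and 2 IgG reads at high glucose, and 39 HNF4A and 6 IgG reads at low glucose. The log2 ratios were 4.41 (2.48 to 7.50) and 2.67 (1.42 to 4.21), the highest of the family at high glucose. On chromosome 19 the highest was a 517 bp region nearest to ZNF584 (58915188 to 58915704). It held 35 HNF4A and 2 IgG reads in the high glucose pair, and 22 and 6 in the low glucose pair. Its ratios were 3.98 (2.02 to 7.08) and 1.85 (0.50 to 3.44). The region of ZNF557 (7134830 to 7135517) held 29 HNF4A and 3 IgG reads at high glucose and 13 and 3 at low glucose, with ratios of 3.13 (1.44 to 5.49) and 2.09 (0.23 to 4.54). At high glucose these 3 regions had the lowest IgG reads of the family, and their HNF4A reads were below its median of 52.

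Elsewhere, ZNF771 on chromosome 16 (30412935 to 30413673) stood at 2.85 (1.36 to 4.81) for high glucose and at 1.37 (0.13 to 2.75) for low glucose. ZNF674, a KRAB zinc finger gene of the X chromosome, stood at 1.88 (0.99 to 2.88) and 1.07 (0.11 to 2.10). The 803 bp region of ZNF668, which encodes a protein linked to DNA repair, stood at 1.69 (0.81 to 2.66) and 1.71 (0.60 to 2.97). At low glucose the highest of the family was a region of ZNF778 on chromosome 16 (89322934 to 89323777). It held 60 HNF4A and 23 IgG reads in the high glucose pair, and 51 and 5 in the low glucose pair. Its ratios were 1.24 (0.52 to 2.0) at high glucose and 3.32 (2.01 to 5.01) at low glucose. ZNF860 on chromosome 3 (32010211 to 32011110) followed, at 1.60 (0.60 to 2.72) and 3.06 (1.57 to 5.02). On chromosome 19 the highest at low glucose after ZNF584 and ZNF557 were ZNF235 at 1.82 (0.78 to 3.00), ZNF480 at 1.45 (0.30 to 2.73) and ZNF345 at 1.39 (0.50 to 2.35).

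The most HNF4A reads were elsewhere than in these regions. ZNF787 (chromosome 19, 56631401 to 56633274) held 136 HNF4A and 52 IgG reads at high glucose and 81 and 37 at low glucose, with ratios of 1.24 (0.77 to 1.73) and 1.1 (0.53 to 1.71). ZNF837 held 115 and 48 reads at high glucose and 94 and 54 at low glucose, with ratios of 1.11 (0.62 to 1.63) and 0.77 (0.28 to 1.28). ZNF3 on chromosome 7, whose 4513 bp region was the longest of the family, held 254 and 158 reads at high glucose and 175 and 115 at low glucose, at 0.54 (0.25 to 0.83) and 0.58 (0.23 to 0.93). The 2 regions of ZNF696 on chromosome 8 stood at 1.15 (0.78 to 1.53) and 1.5 (1.01 to 2.02) at high glucose, and at 1.26 (0.80 to 1.74) and 1.28 (0.65 to 1.94) at low glucose. Their intervals were narrower than those of the 3 highest regions at high glucose. ZNF687 and ZNF274 were also named for the most HNF4A reads. They stood at -0.21 and 0.07 over IgG at high glucose, and at 0.58 and 1.19 at low glucose. The intervals of both are given below.

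At the other end, 3 regions had an interval below 0 at high glucose. A 282 bp region nearest to ZNF180 (chromosome 19, 45017026 to 45017307) had, at high glucose, 12 HNF4A reads and 23 IgG reads, a ratio of -1.08 (-2.23 to -0.02). At low glucose it held 13 and 5 reads, at 1.35 (-0.23 to 3.19), so the HNF4A reads were alike at both levels and the IgG reads were fewer at low glucose. ZNF23 on chromosome 16 held 17 and 31 reads at high glucose and 9 and 14 at low glucose, at -1.01 (-1.96 to -0.11) and -0.66 (-2.05 to 0.65). ZNF7 on chromosome 8 held 107 and 137 reads at high glucose and 91 and 67 at low glucose, at -0.50 (-0.88 to -0.13) and 0.42 (-0.06 to 0.89). The lowest at low glucose on chromosome 19 was ZNF573 (38269818 to 38270655), with 11 HNF4A and 20 IgG reads and a ratio of -0.89 (-2.10 to 0.24).

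Across the 123 ZNF regions, the ratios at high and at low glucose, which come from separate libraries, correlated with a Pearson r of 0.521 and a Spearman rho of 0.420, as a description over regions that share their libraries. Over all regions r was 0.561 and rho 0.606. HNF4A exceeded IgG in both glucose pairs in 83 ZNF regions (67.5%, against 79.7% of all regions). In 29 it was above IgG only in the low glucose pair, in 7 only in the high glucose pair and in 4 in no pair. Over all 5326 regions these counts were 628, 237 and 216. An excess of at least 2-fold with an interval above 0 at both levels was seen in 17 ZNF regions (13.8%), against 29.1% of all regions. Of the 17, 3 were on chromosome 19, nearest to ZNF557, ZNF584 and ZNF787 (7.32% of its 41 ZNF regions). The 14 elsewhere (17.1% of 82) were led by ZNF638, ZNF668, ZNF860, ZNF487, ZNF462 and ZNF771. For other genes the shares were 26.2% on chromosome 19 and 29.7% elsewhere. Without the interval, 31.4% of all regions were at least 2-fold above IgG at both levels, and an interval above 0 at both was seen in 41.1%.

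**Figure D3:**
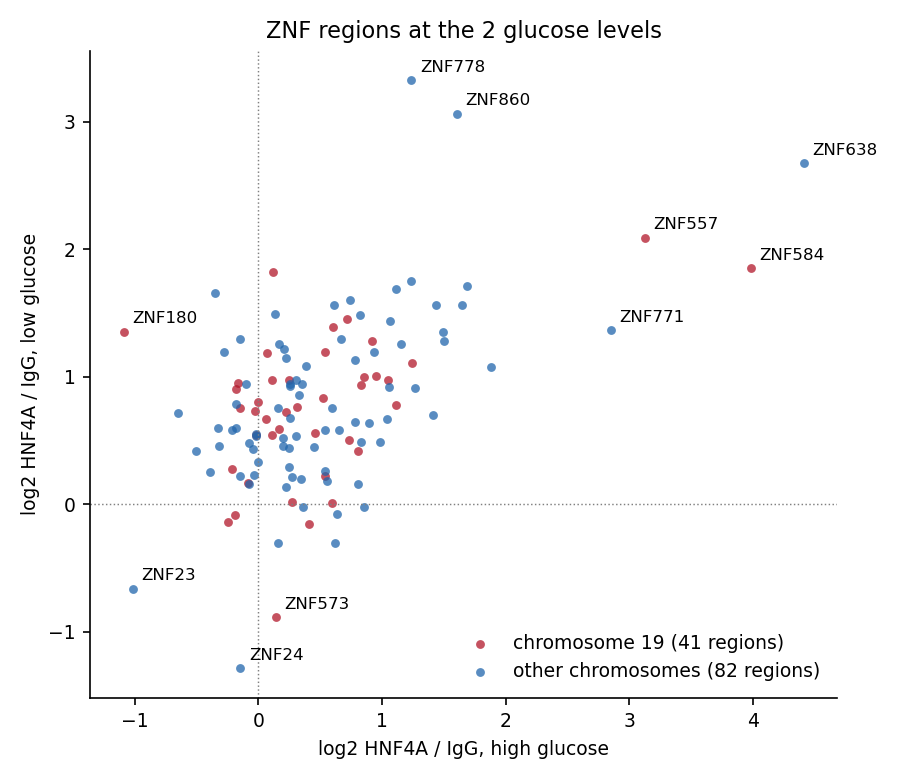
Log2 ratio of HNF4A over IgG for each ZNF region at high glucose (horizontal axis) and low glucose (vertical axis), with chromosome 19 in red and other chromosomes in blue. Of the 123 points 83 are above IgG on both axes and 29 at low glucose alone, against 4245 and 628 of all 5326 regions. The labelled genes are those at the edges, such as ZNF638 at 4.41 and 2.67.

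The second question was whether HNF4A differed between the glucose levels at these genes. HNF4A was higher at high glucose in 97 of the 123 ZNF regions (78.9%), near the share over all regions (81.8%). The median log2 ratio was 0.23, against 0.36 over all regions. The median was 0.16 on chromosome 19 and 0.28 elsewhere, and 0.32 for other genes on chromosome 19. Set against the median over all regions, the ZNF median was -0.12. At least a 2-fold excess at high glucose was seen in 4 ZNF regions (3.25%, against 6.78% of all regions). The interval lay above 0 in 19 (15.4%, against 25.8%) and below 0 in none of the 123, where 0.826% of all regions had one below 0. A deficit of at least 2-fold was seen in 0 of the 123 (0.713% of all regions). On chromosome 19 the interval lay above 0 in 4 of 41 regions (9.76%), and elsewhere in 15 of 82 (18.3%). The shares for other genes were 25.6% on chromosome 19 and 26.1% elsewhere.

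The 4 regions past 2-fold were nearest to ZNF573, ZNF778, ZNF557 and ZNF24. ZNF573 had 33 HNF4A reads in the high glucose library and 11 in the low glucose one, a ratio of 1.45 (0.43 to 2.58), where IgG had 27 and 20 reads and stood at 0.42 (-0.47 to 1.33). A second region of ZNF778 (89313343 to 89314228) had 38 and 14 HNF4A reads, at 1.30 (0.39 to 2.30), and its IgG stood at 1.15 (0.12 to 2.27), so both libraries were higher at high glucose there. ZNF557 stood at 1.02 (0.03 to 2.09). ZNF24, a SCAN domain zinc finger gene on chromosome 18, had 15 and 5 reads, at 1.45 (-0.08 to 3.26). Among the 6 regions named for the most HNF4A reads, ZNF787 stood at 0.61 (0.20 to 1.03), that of ZNF696 at 0.51 (0.19 to 0.83) and ZNF3 at 0.40 (0.12 to 0.69). The other 3 had intervals that held 0, with ZNF837 at 0.16 (-0.25 to 0.56), ZNF687 at -0.13 (-0.42 to 0.17) and ZNF274 at -0.26 (-0.67 to 0.14). In the other direction, the lowest were ZNF445, a gene that keeps imprinted loci methylated, at -0.46 (-1.30 to 0.37), ZNF397, at -0.43 (-1.31 to 0.44), and ZNF235, at -0.40 (-1.15 to 0.34).

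IgG also differed between the glucose levels. It was higher at high glucose in 105 of the 123 ZNF regions (85.4%, against 77.9% of all regions), with a median of 0.57, against 0.51 over all regions, and with 0.47 on chromosome 19 and 0.61 elsewhere. Its interval lay above 0 in 44 ZNF regions (35.8%, against 26.2% of all regions) and below 0 in 0 (1.93% of all regions). At least a 2-fold excess was seen in 24 ZNF regions (19.5%, against 19.4% of all regions), and a deficit of that size in 3 (3.38% of all regions). The log2 ratio of HNF4A over IgG was smaller in the high glucose pair in 83 ZNF regions and larger in 40 (32.5%, against 41.7% of all regions), with a median difference of -0.33, against -0.15 over all regions. The median was -0.36 on chromosome 19, -0.33 elsewhere and -0.30 for other genes on chromosome 19. Chromosome 19 minus other ZNF regions, -0.03, was 0.33 when the regions below the median level were left out. The interval of the difference lay below 0 in 20 ZNF regions (16.3%, against 7.42% of all regions) and above 0 in 1 (0.813%, against 4% of all regions). The difference was at least 2-fold higher in 6 (8.49% of all regions) and lower in 15 (11.9%).

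ZNF274 shows this pattern with many reads. Its protein recruits SETDB1 to the coding ends of ZNF genes, and its region (chromosome 19, 58693338 to 58695540) held 100 HNF4A and 86 IgG reads at high glucose and 109 and 47 at low glucose. The ratio over IgG was 0.07 (-0.36 to 0.50) for high glucose and 1.19 (0.68 to 1.71) for low glucose, a difference of -1.12 (-1.80 to -0.44). HNF4A at high over low glucose stood at -0.26 (-0.67 to 0.14) and IgG at 0.86 (0.33 to 1.40). ZNF235 had a difference of -1.70 (-3.14 to -0.33). Its HNF4A reads numbered 30 at high and 36 at low glucose, and its IgG reads 25 and 10. ZNF143 itself, on chromosome 11, held 40 and 45 reads at high glucose and 46 and 33 at low glucose, at -0.32 (-0.97 to 0.33) and 0.45 (-0.22 to 1.14). The exact test of the difference, which compares the 4 libraries and not the conditions, called 1 of the 123 ZNF regions after Benjamini-Hochberg adjustment over 5326 regions (0.813%, against 0.563% of all regions in that direction), and 0 in the other direction (0.544% of all regions).

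Many ZNF regions had another ZNF region near them along the chromosome. Joining neighbours less than 1 Mb apart gave 12 stretches of at least 3 ZNF regions, which held 72 of the 123. Standing alone were 4 regions on chromosome 19 and 29 elsewhere. Regions of other genes were not joined in this way, so closeness is not compared with theirs. Of the 41 regions on chromosome 19, 26 were in 3 stretches of at least 5. The stretch from ZNF565 to ZNF573 (36705043 to 38270655, 7 regions) had median ratios over IgG of 0.53 for high and 0.75 for low glucose. That from ZNF576 to ZNF180 (44099936 to 45017307, 8 regions) had medians of 0.14 and 0.85, and that from ZNF460 to ZNF324 (57790824 to 58978786, 11 regions) 0.07 and 0.67. In the last of these, 7 of the 11 regions exceeded IgG in the high glucose pair and 9 in the low glucose pair. The shares over all regions were 84.2% and 91.5%. In that stretch the ratios at high glucose ran from -0.25 for ZNF211 to 3.98 for ZNF584. Regions of other genes inside the 3 stretches numbered 3, 4 and 2, in the order given. Their medians were -0.02, 0.22 and -0.31 for high glucose, and 0.38, 0.34 and 0.38 for low glucose.

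Elsewhere, the largest stretch was on chromosome 16 from ZNF771 to ZNF668 (30412935 to 31086086, 11 regions). All 11 exceeded IgG in the high glucose pair and 10 in the low glucose pair, where 84.2% and 91.5% of all regions did. The stretch had medians of 0.62 and 0.93. The 8 regions of other genes inside it had medians of 0.61 and 1.02. On chromosome 8, the stretch from ZNF251 to ZNF16 (145909301 to 146176530) had 1 of 6 regions above IgG in the high glucose pair and all 6 in the low glucose pair, with medians of -0.20 and 0.45. A neighbouring stretch from ZNF696 to ZNF707, also on chromosome 8, had medians of 0.69 and 1.20. These 2 stretches, picked from the 12, hold 6 and 4 regions, and the gap between their medians carries no test. It cannot be set against the gap between chromosome 19 and other chromosomes, which rests on 41 and 82 regions.

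**Figure D4:**
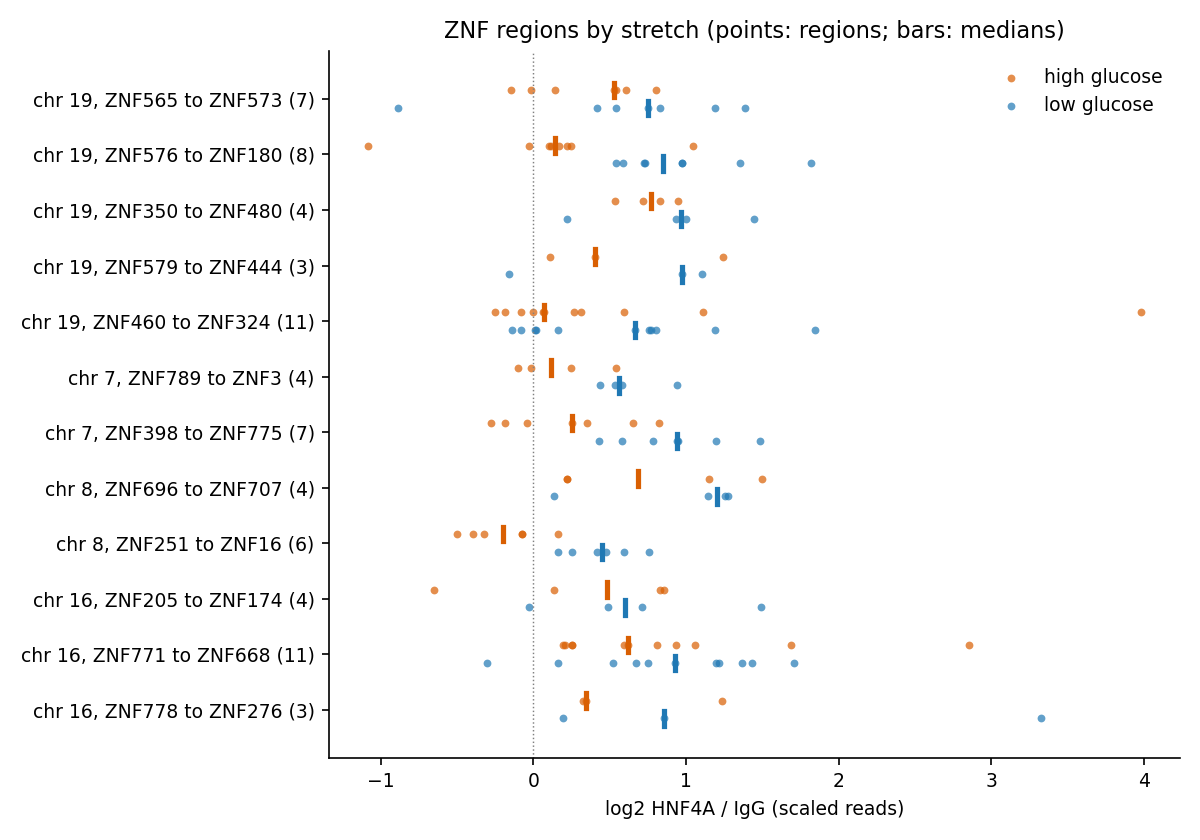
Log2 ratio of HNF4A over IgG for the 72 ZNF regions in the 12 stretches of at least 3 regions, named by their first and last gene with the number of regions in brackets, at high glucose (orange) and low glucose (blue). Bars are medians, and the stretch from ZNF251 to ZNF16 is the one with a median below 0 at high glucose, at -0.20.

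In the ZNF576 to ZNF180 stretch, 6 of the 7 genes carried the ZNF143 motif in a promoter. Over the family, the 17 regions of the 15 genes with that motif had median ratios over IgG of 0.14 at high and 0.97 at low glucose. The 86 regions of the 77 genes with a promoter sequence but without the motif had 0.49 and 0.69. The median difference of the ratio at high minus low glucose was -0.73 with the motif and -0.26 without it. Regions with the ETS motif had medians of 0.31 and 0.67, and those without it 0.50 and 0.84. Of the 15 genes with the ZNF143 motif 14 are on chromosome 19 and several are neighbours, the split was made after the values were known, and it carries no test.

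The ratio of regions nearest to the same gene differed widely in some genes and little in others. Among the 14 genes with several regions, 29 regions in all, the range within a gene had a median of 0.90 in log2 for high glucose and 0.43 for low glucose. It passed 1 in 6 genes in the high glucose pair and in 4 in the low glucose pair. The range was not worked out for other genes, so these counts are not known to be particular to ZNF genes. The quartiles over all ZNF regions were -0.01 and 0.83 at high glucose, and 0.43 and 1.19 at low glucose. ZNF584 had the widest range, since its second region (58918795 to 58920792) had 86 HNF4A reads against 78 IgG reads at high glucose, a ratio of -0.01 (-0.46 to 0.46). ZNF629, the one gene with 3 regions, stood at 0.21 (-0.39 to 0.82), 0.93 (-0.28 to 2.26) and 0.59 (-0.17 to 1.39) at high glucose, and its intervals overlapped. The 2 regions of ZNF689 both stood near 0.25 at high glucose.

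Of the partners of KRAB zinc finger proteins, 6 of 33 listed gene names had a region, 8 regions in all. Their median ratio over IgG was 0.43 at high and 0.23 at low glucose, against 0.79 and 0.94 over all regions. TRIM28, on chromosome 19 beside the ZNF genes, held 36 HNF4A and 43 IgG reads at high glucose and 37 and 30 at low glucose, at -0.40 (-1.08 to 0.27) and 0.28 (-0.46 to 1.02). SETDB1 stood at 0.46 (-0.15 to 1.09) and 0.18 (-0.47 to 0.82). A region of ATF7IP, the SETDB1 cofactor gene, was the one of the 8 with an interval above 0 over IgG, at 1.59 (0.63 to 2.66) and 2.46 (1.07 to 4.19). Over all regions, 55.2% had such an interval at high and 56.2% at low glucose. The other ATF7IP region stood at 0.46 (-0.38 to 1.33) and 0.75 (-0.26 to 1.82). FAM208A, which encodes a HUSH subunit, stood at -0.35 (-1.07 to 0.36) and -0.37 (-1.45 to 0.69). Genes of other zinc finger families, taken by name, had 43 regions with medians of 0.68 at high and 1.04 at low glucose. That list, which runs from KLF and ZBTB to ZSCAN genes, also takes in ZFP36 and SP100, which are not C2H2 zinc finger genes.

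In the authors' deposited tables, 0 of the 123 ZNF regions passed a false discovery rate of 0.05 in any of the 3 comparisons. Of all 5326 regions, 0 passed in each comparison as well, so this count is not particular to ZNF regions. The authors' deposited table for high glucose held 3 ZNF regions with an unadjusted p under 0.05, nearest to ZNF584, ZNF638 and ZNF706 (2.44%, against 4.96% of all regions above IgG). The authors' deposited table for low glucose held 3, nearest to ZNF778, ZNF860 and ZNF827, against 3.04% of all regions. The authors' deposited table of HNF4A at high over low glucose held 2, nearest to ZNF778 and ZNF573, against 4.39%. By the exact binomial test of the reads, adjusted over all regions, which compares 2 libraries, 36 ZNF regions were called above IgG at high glucose (29.3%, against 52.3% of all regions) and 54 at low glucose (43.9%, against 51%). Below IgG it called 2 at high glucose (1.6% of all regions) and 0 at low glucose (0.582%). Between the glucose levels it called 8 as higher at high glucose for HNF4A (6.50%, against 13%) and 28 for IgG (22.8%, against 14.3%), and 0 as lower for either, where 0.263% and 0.958% of all regions were.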

How the data were processed

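The authors deposited 3 tables of comparisons over the same 5326 hg19 regions. Per the submitters' processing notes, Bowtie 1.1.2, MACS, DiffBind and HOMER were used; the sources used here give neither settings nor how regions were chosen. Per the file headers, each row gives log2 levels, a fold, a p-value and a closest gene. The deposited log2 fold equals the first log2 level minus the second, and the authors' deposited false discovery rate equals a Benjamini-Hochberg adjustment of their p-value.

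The antilog of every level, divided by the value of 1 read in its library, came out whole within 0.01 (100% of values), which gave the reads. Relative library sizes were 1.10 for HNF4A and 0.993 for IgG at high glucose, and 1 for HNF4A and 0.982 for IgG at low glucose. The 5326 regions held 402237, 249744, 295460 and 198683 reads in these libraries; total depth is not given. No ZNF region was listed at 1 read, where 1 may stand for 0; the fewest was 2. Closest gene names differed between tables for 20 regions, none of them a ZNF region. PCR copies are not independent molecules.

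Intervals, exact binomial tests and exact conditional tests of the difference of ratios (scipy 1.17.1) ran on all regions and were tested on simulated reads. Members and lists were chosen with earlier results of these data known. Named, separately for chromosome 19 and the rest, were the 5 highest and 3 lowest regions per comparison (1 per gene, at least 20 reads in the pair), the 3 with most HNF4A reads, genes with 3 or more regions, and at most 6 of those at least 2-fold above IgG at both levels; not all are printed, and other genes were chosen after their values were seen. Starts are counted from 1. The 10 motifs searched on both strands were the HNF4A motif CAAAGTCCA with its shorter forms AAAGTCCA and also AAGTCCA, the variants CAAAGGTCA and CAAAGTTCA, the ETS motif CTTCCGG with its shifted form TTCCGGTT, the nuclear receptor direct repeat DR1, the NRF1 motif and the ZNF143 motif. The first 3 overlap each other, as do both ETS forms, and none of the 7 not described above was in more than 3.97% of member promoters.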

Additional observations from a re-analysis of the deposited data

Results flagged for a closer look

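The region of ZNF687 on chromosome 1 (151253351 to 151256354) was the one ZNF region whose ratio of HNF4A over IgG differed between the glucose levels in the exact conditional test of the reads. It held 194 HNF4A and 203 IgG reads at high glucose and 193 and 127 at low glucose, with ratios of -0.21 (-0.50 to 0.08) and 0.58 (0.25 to 0.91). The difference at high minus low glucose was -0.79 (-1.24 to -0.34), with an exact Benjamini-Hochberg adjusted p of 0.0415 over 5326 regions. HNF4A at high over low glucose stood at -0.13 (-0.42 to 0.17) and IgG at 0.66 (0.33 to 0.99). The test compares 4 single libraries.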

How the results depend on the processing

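No paired analysis was possible because each group has 1 library. Over the settings tried for the family, 121 values moved by less than the limit set for them, 23 moved by more, and 4 family medians changed sign. For medians and their differences the limit came from 95% intervals of the median over regions, and for counts it was a factor of 1.5. Regions are not replicates, so staying within a limit does not measure reproducibility. A difference could also change sign within its limit. Centring on the median of all regions turned the ZNF medians to -0.46 over IgG at high glucose, -0.19 at low glucose and -0.12 for HNF4A between the glucose levels, and that of IgG between them to 0.059. Subtracting IgG, possible in 83 regions, turned the HNF4A median between the levels to -0.15. The counts of regions at least 2-fold higher (23 and 39 over IgG at high and low glucose, 4 for HNF4A and 24 for IgG between the glucose levels, 6 for the difference of ratios) moved with the settings. Centring gave 5, 4, 2 and 5 for the first 4 of these. Regions at or above the median level alone gave 9, 19, 0, 14 and 1. A 3-fold limit gave 8, 11, 0, 4 and 2, and a 1.5-fold limit 48, 74, 23, 61 and 12. With IgG subtracted the count for HNF4A was 15, and with 1 read added that for the difference of ratios was 3. For the ratio at high minus low glucose, the median of chromosome 19 minus that of other ZNF regions, -0.03, became 0.33 at or above the median level, on 69 regions; the cause was not tested. It also changed sign, at 0.021 with 1 region per gene, 0.041 with the mean of a gene's regions and 0.017 with pooled reads, and pooled reads turned the same difference for HNF4A over IgG at low glucose, 0.087, to -0.036. Neither difference thus has a settled direction. For single named values, adding 1 read was an alternative chosen after the data were seen. It ended the interval below 0 of ZNF180 at high glucose, at -1.03. The intervals of 47 others stayed clear of 0 or still held it, as before. Centring, also chosen after the data were seen, left 19 named intervals clear of 0 or holding it, as before. It made 16 intervals that had been clear of 0 hold it, and 13 that had held 0 clear of it. Few IgG reads, 2 to 6, stand under ZNF638, ZNF584 and ZNF557.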
